A study of Homo sapiens with 48 samples.

Results

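The widest H3K9me3 domains shared by control and ZNF274-hairpin cells of the pancreatic ductal adenocarcinoma (PDAC) line ASPC1 are described here. A domain was taken when the authors listed it as a broad H3K9me3 peak in both the shZNF274 and the shCTRL group, annotated it as intron or intergenic, and gave it a width of at least 30000 bp, and when it overlapped no gene named ZNF followed by digits. Of 63955 listed peaks, 1262 met this rule, with 913 intergenic and 349 intronic domains. A further 83 peaks of the same width and classes lay over a ZNF gene and were left out. The series studies ZNF274, a KRAB zinc finger protein, in 3 established PDAC lines. The domains came from CUT&RUN of ASPC1 carrying a stable hairpin against ZNF274 (shZNF274) or a control hairpin (shCTRL), and both groups had received 1 µg/ml doxycycline for 9 days. RNA-seq of the genes inside the domains came from 30 libraries in 10 groups of 3. ASPC1 and CFPAC1 were each transfected with siRNA against ZNF274 (siZNF274) or a control siRNA (siCTRL), and were each treated with 5 µM azacitidine (AZA, a nucleoside that inhibits DNA methyltransferases) or DMSO, while Panc3.27 carried a ZNF274 overexpression vector (OE) or an empty vector. Each line is 1 cell line, and no H3K9me3 map of CFPAC1 or Panc3.27 was used, so in those lines the domains are positions mapped in ASPC1.

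H3K9me3 is the trimethylated form of lysine 9 of histone H3 and marks heterochromatin, the compacted and mostly silent part of the genome. SETDB1, brought to DNA by KRAB zinc finger proteins and TRIM28, and the SUV39H enzymes place the mark, and HP1 proteins bind it. In differentiated cells broad H3K9me3 domains are known to cover gene-poor DNA, repeats, clustered gene families and genes of other lineages.

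The promoters of 5 genes show the kinds of start site met inside the domains. Each sequence is the RefSeq window from 250 bases before to 50 bases after a gene start (GRCh38.p14), printed 5′ to 3′ on the gene's strand, with every CG dinucleotide in capitals. KRTAP19-1 and H3Y1 are shown as CG-poor starts within a domain, ZFP37 as a CG-rich start within a domain, and AUTS2 and TIAM1 as CG-rich starts outside the domains that cover most of the gene.
KRTAP19-1, chr21:30480318-30480617, minus strand: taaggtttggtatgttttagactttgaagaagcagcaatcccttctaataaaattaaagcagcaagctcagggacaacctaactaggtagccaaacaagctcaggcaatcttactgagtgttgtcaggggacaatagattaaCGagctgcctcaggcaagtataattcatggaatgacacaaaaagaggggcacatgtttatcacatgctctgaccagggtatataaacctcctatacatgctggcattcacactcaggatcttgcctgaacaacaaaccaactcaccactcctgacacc
H3Y1, chr5:17655800-17656099, minus strand: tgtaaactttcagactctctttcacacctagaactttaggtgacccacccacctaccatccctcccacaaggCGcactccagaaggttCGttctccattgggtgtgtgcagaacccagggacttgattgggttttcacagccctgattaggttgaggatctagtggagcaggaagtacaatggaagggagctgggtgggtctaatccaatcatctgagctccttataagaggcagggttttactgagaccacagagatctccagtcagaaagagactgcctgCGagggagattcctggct
ZFP37, chr9:113056675-113056974, minus strand: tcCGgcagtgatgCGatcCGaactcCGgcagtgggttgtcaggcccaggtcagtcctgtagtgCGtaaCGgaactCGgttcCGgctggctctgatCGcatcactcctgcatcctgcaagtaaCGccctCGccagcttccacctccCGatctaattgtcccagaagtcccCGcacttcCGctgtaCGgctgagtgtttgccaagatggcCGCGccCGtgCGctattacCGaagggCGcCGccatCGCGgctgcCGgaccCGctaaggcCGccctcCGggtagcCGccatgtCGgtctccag
AUTS2, chr7:69598225-69598524, plus strand: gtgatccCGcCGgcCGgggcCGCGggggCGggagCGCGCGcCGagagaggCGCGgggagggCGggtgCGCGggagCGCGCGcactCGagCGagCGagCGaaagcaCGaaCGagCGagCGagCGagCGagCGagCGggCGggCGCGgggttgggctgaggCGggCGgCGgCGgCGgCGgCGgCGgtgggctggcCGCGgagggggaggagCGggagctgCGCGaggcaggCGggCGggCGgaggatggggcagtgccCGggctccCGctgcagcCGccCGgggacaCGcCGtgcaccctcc
TIAM1, chr21:31559038-31559337, minus strand: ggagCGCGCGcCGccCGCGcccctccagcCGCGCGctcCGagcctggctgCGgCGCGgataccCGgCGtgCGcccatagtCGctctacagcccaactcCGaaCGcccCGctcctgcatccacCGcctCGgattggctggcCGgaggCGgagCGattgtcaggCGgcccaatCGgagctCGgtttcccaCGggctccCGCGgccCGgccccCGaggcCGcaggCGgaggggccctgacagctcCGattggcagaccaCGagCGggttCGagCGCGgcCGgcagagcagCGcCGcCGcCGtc
These windows hold 1 CG in KRTAP19-1, 3 in H3Y1, 30 in ZFP37, 55 in AUTS2 and 46 in TIAM1. The letters TATAAA, searched on both strands, occur in the KRTAP19-1 window and in none of the other 4. The AUTS2 window lies under no listed H3K9me3 peak and starts 460 bp after the end of the widest domain. The TIAM1 window lies under another H3K9me3 peak, 80323 bp from the nearest wide domain.

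The domains covered 124.94 Mb, 27.8% of the 448.9 Mb under all listed peaks, although they were 1.97% of the peaks. Their median width was 50814.5 bp (quartiles 37857.75 and 94126 bp), against 3633 bp over all listed peaks. The width was part of the rule and is given as a description. Of the 1262 domains, 300 reached 100 kb, 30 reached 500 kb and 5 reached 1 Mb. The narrowest domains taken were 30014, 30030 and 30040 bp wide, and the widest peaks left out by width alone were 29998, 29976 and 29937 bp.

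Chromosome 21 held the densest set, with 58 domains over 26.8% of its span. Chromosome 20 followed at 12.7%, chromosome 22 at 9.68%, chromosome 16 at 8.63% and chromosome 7 at 8.03%, while over all chromosomes the domains took 4.14% of the span. Chromosome 7 held the largest number and length, 120 domains over 12.8 Mb. At the other end, chromosome 3 was covered over 1.16% of its span and chromosome Y, with 3 listed domains, over 0.235%. Whether ASPC1 carries a Y chromosome was not examined, so these 3 peaks may not come from Y. The span of Y is part of the span over all chromosomes.

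The domains stood in runs. Of 1238 gaps between neighbours on a chromosome, 832 were under 100 kb and 449 under 10 kb, with a median of 32682.5 bp. Joined across gaps under 100 kb, the domains formed 430 runs, and 1054 of the 1262 domains had at least 1 such neighbour. The longest run, chr21:19389889-25463057, held 20 domains over 6.07 Mb, of which 5.98 Mb was covered. It touched 35 listed genes, and NCAM2, a neural cell adhesion molecule, was the single protein-coding gene among them. A run of 8 domains at chr5:2232292-4819204 touched the homeobox genes IRX2 and IRX1, each covered over less than 50% of its body, and a run of 21 domains at chr16:5695674-8131127 lay over RBFOX1, a splicing factor known from neurons and muscle. Runs at chr1:122226496-124788968 (22 domains) and chr2:92188189-94196345 (18 domains) touched no listed gene. The sequence and repeat content of the domains were not read.

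Of the 10 widest domains, some touched no coding gene and others touched genes known from neurons and sensory cells. The widest, chr7:67805635-69597765 (1792131 bp), touched lncRNAs and no coding gene. The next were chr21:21163953-22353895, which reached over part of NCAM2, and chr20:54942976-56124146, which held CBLN4, a secreted organiser of synapses. The domain at chr9:43500096-44596595 touched no listed gene, and those at chr7:62544499-63626797 and chr16:35061185-35997982 touched lncRNAs alone. The domain at chr10:130225408-131129300 reached into TCERG1L, which further domains also cover, chr20:60364211-61252048 reached into MIR646HG and touched other lncRNAs, chr11:54690631-55578019 held 5 olfactory receptor genes and TRIM48, and chr7:70857251-71734521 held GALNT17, a glycosyltransferase. In the 12 ASPC1 libraries NCAM2, GALNT17, TRIM48, OR4A5 and OR4C15 had 0 counts each, TCERG1L had 1 count and CBLN4 had 2.

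None of the 1262 domains was called changed in the authors' deposited table for shZNF274 against shCTRL. Among the 41136 peaks in both groups, that table called 3 Up (0.00729%) and 126 Down (0.306%), and 4 of the 83 equally wide peaks over ZNF genes were among the Down calls. The rule required a peak in both groups, so the domains were chosen in part by the same samples. The sources used here do not give the test and threshold behind the call.

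The domains were poor in coding genes. Of the 1262 domains, 737 touched no gene of the count table, 525 touched 1 or more and 261 touched a coding gene. These counts and the densities below rest on annotated genes, so stretches where none are annotated, such as repeats, lower them. Coding genes had their centres in the domains at 1.30 per Mb, against 6.60 per Mb over the whole span, and lncRNAs at 3.79 per Mb, against 5.59. In RefSeq (GRCh38.p14), pseudogenes did not thin out in this way, with 5.65 per Mb in the domains and 5.16 per Mb over the span. For olfactory receptor pseudogenes these densities were 0.352 and 0.142 per Mb. A gene is called inside when at least 50% of its body lay in the domains, which held for 627 genes, 156 coding and 471 lncRNA, and 156 more genes were touched over less of the body.

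Clustered multicopy gene families made up much of the coding content. The domains held all 13 listed TAF11L genes and both H3Y genes on chromosome 5, where H3Y1 and H3Y2 encode primate variants of histone H3, and 20 of 26 USP17L genes on chromosome 4, a family of deubiquitinases. On chromosome 21 they held 23 of 95 keratin-associated protein genes (KRTAP), which encode hair proteins, and on chromosome 16 they held 5 of 6 TP53TG3 genes. Olfactory receptor genes were spread more thinly, with 19 of 392 inside, 10 of them on chromosome 11. Inside were also 3 protocadherin genes on chromosome 5. Cadherin, glutamate receptor, cytochrome P450, UGT, serpin, interferon, beta-defensin and taste receptor families had 0 members inside. These families list from 22 (UGT) to 61 (cytochrome P450) genes each. Of all 19955 listed coding genes 156 were inside, so 0 members is near that share. The sources used here do not give how reads that match several copies were counted, which leaves the values of multicopy families uncertain.

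Genes inside the domains were nearly all silent in ASPC1. A gene is called low when its mean over a line's control libraries (siCTRL and DMSO, or empty vector) was under 0.5 counts per 1e6 counts of the library (CPM), which is 15.7 to 21.7 counts at these depths. In ASPC1, 140 of 156 coding genes inside were low (89.7%), against 39.9% of all listed coding genes. Of the lncRNAs inside, 469 of 471 were low (99.6%), against 88.4% of all listed lncRNAs. No count in any of the 12 ASPC1 libraries was found for 108 of the coding genes inside (69.2%), against 14.3% of all coding genes. The multicopy families are here the KRTAP, USP17L, TAF11L, TP53TG3, H3Y, POTE and olfactory receptor genes. When they were left out, 56 of 72 coding genes were low (77.8%), against 38.2% of all listed coding genes without those families. Of these 72, 27 had no count in the 12 ASPC1 libraries (37.5%), against 12.5% of all coding genes without the families. Of coding genes lying wholly within domains, counted with these families, 96 of 99 were low, and the share without them was not taken.

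The share under wide domains was close to that under narrower peaks once these families were left out. Under shared intron and intergenic peaks narrower than 30000 bp, 68 of 83 coding genes with at least 50% cover were low in ASPC1 (81.9%), and 52 of 67 without the families (77.6%). Under the wide peaks over ZNF genes, 101 of 155 were low (65.2%), and 100 of 154 without the families (64.9%). No test was run on these shares, since the sets were chosen with the peak calls in view.

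The domain genes were also mostly silent in the lines whose chromatin was not mapped. In CFPAC1, 131 of 156 coding genes inside were low (84.0%), against 34.0% of all coding genes, and in Panc3.27 134 were low (85.9%), against 33.6%. Without the multicopy families, 47 of 72 were low in CFPAC1 (65.3%), against 32.2% of all coding genes without them. In Panc3.27 50 of 72 were low (69.4%), against 31.7%. Of the 140 coding genes inside that were low in ASPC1, 12 were not low in CFPAC1 (8.57%) and 12 were not low in Panc3.27 (8.57%). Over all coding genes low in ASPC1 these shares were 19.6% and 22.9%. With those families left out, 12 of 56 genes inside were not low in CFPAC1 and 12 of 56 in Panc3.27 (21.4% each), against 21.0% and 24.5% of all coding genes low in ASPC1. Over all 30 libraries, 338 of the 627 genes inside had no count, among them all 20 USP17L genes, 16 of the 23 KRTAP genes and 14 of the 19 olfactory receptor genes.

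The summed level of the genes inside was near 200 CPM in ASPC1 and higher in the other lines. It was 197.8, 203.8 and 201.9 CPM in the ASPC1 DMSO libraries, 741.6, 939.1 and 731.3 CPM in the CFPAC1 DMSO libraries, and 779.1, 697.2 and 693.1 CPM in the Panc3.27 vector libraries. Without TAF7 and MUC16 the same libraries held 107.9, 104.5 and 106.5 CPM in ASPC1, 535.4, 562.2 and 517.6 CPM in CFPAC1, and 314.2, 317.0 and 315.0 CPM in Panc3.27. The ASPC1 values lay below those of both other lines in either form. A few genes make up much of these sums, such as AUTS2, ATP10A and TIAM1, with means of 114.0, 79.7 and 75.3 CPM in CFPAC1 DMSO. In bulk RNA, fewer cells with a transcript and less RNA per cell cannot be told apart.

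A few genes inside were expressed in every line. Among the genes inside, 11 were not low in any of the 3 lines: TAF7, ZSCAN32, ZFP90, AUTS2, DUSP22, STX8, PCDHB14, PLCB1, ATF7IP2, CASC8 and TMCC1-DT. TAF7, a subunit of the transcription factor TFIID, was the highest in ASPC1, with 89.8, 99.3 and 95.5 CPM in the DMSO libraries, and had 90.0, 80.7 and 93.8 CPM in CFPAC1 DMSO and 67.9, 66.8 and 71.0 CPM in Panc3.27 vector libraries. It sits at the end of the protocadherin beta cluster in the domain chr5:141214570-141319588, which also covers PCDHB13, PCDHB14 and PCDHB15, and its listed body overlaps other genes, so its count carries that uncertainty. ZSCAN32, ZFP90 and ZFP37 are zinc finger genes whose names do not start with ZNF and which the rule therefore kept.

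AUTS2, known from neuronal development and as a partner of Polycomb complexes, was expressed although most of its body was covered. Its body, chr7:69598296-70793506, was covered over 68.7% by 9 domains, the first of them 54.5 kb after the start. AUTS2 had 9.16, 9.33 and 8.13 CPM in ASPC1 DMSO libraries, 109.99, 122.0 and 109.8 CPM in CFPAC1 DMSO libraries and 42.0, 42.6 and 41.4 CPM in Panc3.27 vector libraries. The 3 lines did not overlap, with ASPC1 lowest and CFPAC1 highest.

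**Figure D1:**
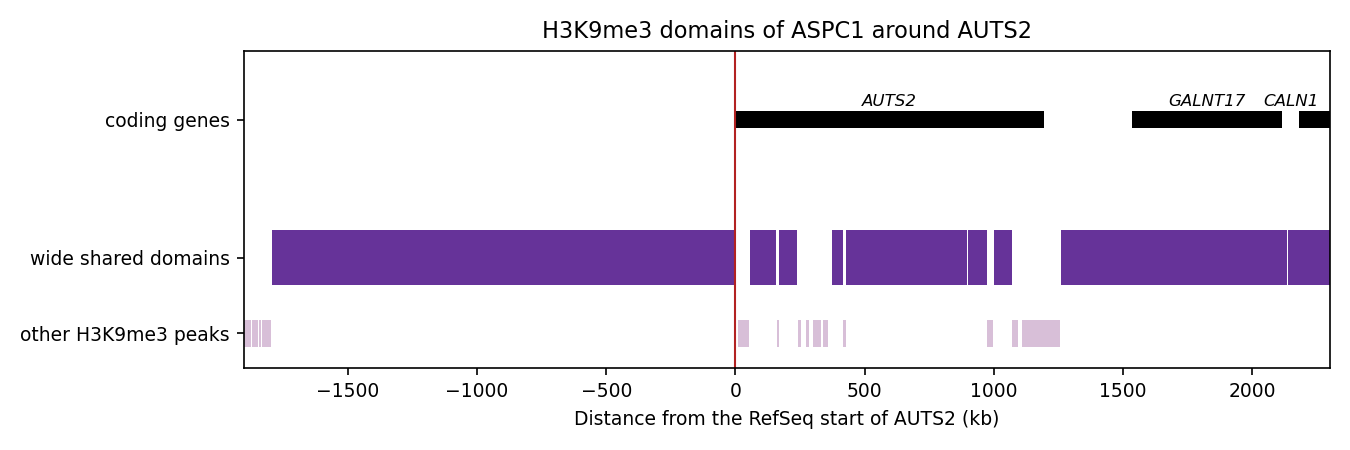
Map of the H3K9me3 peaks around AUTS2 on chromosome 7, drawn as distance in kb from the RefSeq start of AUTS2 (red line), with coding genes on top, the wide shared domains in the middle and the remaining listed peaks below. The widest domain of the set ends just before the start of AUTS2, and 9 domains lie within its body, which is 68.7% covered.

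The genes inside that were expressed often had their start site outside the domains. A RefSeq promoter window was found for 184 of the 627 genes. Of 76 coding genes with every window in a domain, 72 were low in ASPC1, and HEPH, PCDHB14, PCDHB15 and ZFP37 were not. The 76 include members of the multicopy families, and the share without them was not taken. Of 29 coding genes inside with no window in a domain, 21 were low. The other 8 were AUTS2, DUSP22, PCDHB13, STX8, TAF7, ZC4H2, ZFP90 and ZSCAN32. A start outside the wide domains can still lie under another H3K9me3 peak, as for TAF7. Of 19 coding genes inside with no window under any listed peak, 12 were low (63.2%). Of 15142 listed coding genes with a window, 36.1% were low.

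Coding promoter windows in the domains were poor in CG, as in KRTAP19-1 and H3Y1. The median was 3 CG per 300 bases in 93 windows within a domain and 27 in 35 windows of inside genes that lay outside the domains, against 21 over all 21186 coding windows. Windows of the multicopy families are among the 93, and values without those families were not taken. The letters TATAAA on either strand occurred in 29.0% of the windows within a domain and in 8.57% of those outside, against 9.40% of all coding windows. For lncRNAs the medians were 3.5 CG in 80 windows within a domain, 2 in 17 windows of inside genes outside the domains and 6 over all 3314. TATAAA occurred in 22.5%, 17.6% and 12.6% of these lncRNA windows. A match of letters is a description of the window alone.

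Line differences among the silent genes were large for a few members. Besides the genes low everywhere, 31 genes inside, 17 of them coding, were low in ASPC1 and not in at least 1 other line. Of these, 10 were not low in both other lines, among them MUC16, TIAM1, TSHZ3, BASP1, MTMR8, ARHGAP44, LINC01410, CTC-260E6.6 and RP11-262H14.14. The 2 genes expressed in ASPC1 alone were HEPH, an iron oxidase, and POU5F1B, a retrogene of POU5F1.

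MUC16, the mucin that carries the CA125 antigen, had 0.05, 0 and 0 CPM in ASPC1 DMSO libraries. It had 116.2, 296.2 and 119.9 CPM in CFPAC1 DMSO libraries, where 1 library stood apart, and 397.0, 313.4 and 307.2 CPM in Panc3.27 vector libraries. TIAM1, an exchange factor of the GTPase RAC1, had 0.10, 0 and 0.11 CPM in ASPC1 DMSO, 73.2, 77.5 and 75.3 CPM in CFPAC1 DMSO and 61.7, 59.3 and 60.9 CPM in Panc3.27 vector libraries. For both genes every ASPC1 value lay far under every value of the other lines.

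ATP10A, a phospholipid flippase on chromosome 15, was expressed in CFPAC1 alone, with 78.8, 86.6 and 73.7 CPM in DMSO libraries, against 0 counts in the 6 ASPC1 control libraries and 2 counts in the 3 Panc3.27 vector libraries. PLCB4, a phospholipase C, likewise had 32.8, 35.1 and 30.1 CPM in CFPAC1 DMSO, against 0.10, 0.03 and 0.19 CPM in ASPC1 DMSO and 0.23, 0.27 and 0.29 CPM in Panc3.27 vector libraries. ZFP37 stood the other way from CFPAC1, with 0.51, 0.67 and 0.68 CPM in ASPC1 DMSO, 0 in CFPAC1 DMSO and 3.08, 3.52 and 3.31 CPM in Panc3.27 vector libraries. The 3 lines differed in which of these genes had RNA.

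The quality of the libraries was even. Totals ran from 31415743 to 43383141 counts, and no 2 libraries were identical. All 5 ductal epithelial markers (EPCAM, KRT7, KRT8, KRT18 and KRT19) were above 0.5 CPM in every line, the islet markers INS and GCG summed to at most 0.0292 CPM and the acinar markers to at most 0.332 CPM. Leukocyte markers summed to 0.301 to 2.00 CPM, fibroblast markers to 0.253 to 1.11 CPM in ASPC1, 80.2 to 157.8 CPM in CFPAC1 and 54.2 to 77.1 CPM in Panc3.27 (mostly COL1A1), and endothelial markers to 0.406 to 5.40 CPM in ASPC1 and CFPAC1 and 30.1 to 57.6 CPM in Panc3.27. Their part in the results was not tested. In libraries labelled siZNF274, ZNF274 itself was not lower: it had 19.4 ± 2.93 CPM, against 17.6 ± 2.61 with siCTRL in ASPC1 (edgeR adjusted p = 0.305), and 32.8 ± 1.47, against 34.4 ± 1.12 in CFPAC1 (edgeR adjusted p = 0.423). With OE in Panc3.27 it had 136 ± 2.90 CPM, against 49.1 ± 1.54 with vector, 2.76-fold (edgeR adjusted p = 4.17e-11). With AZA it was 1.40-fold its DMSO level in ASPC1 (edgeR adjusted p = 0.00317) and 1.12-fold in CFPAC1 (edgeR adjusted p = 0.0464).

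Few genes inside had enough reads to be tested, so each comparison speaks of the expressed minority. Levels in the comparisons are TMM-scaled CPM within a line, a called gene has an adjusted p under 0.05 in edgeR (quasi-likelihood test, Benjamini-Hochberg over all genes tested), and errors are SDs over 3 libraries. The design text speaks of biological triplicates, while the sample labels do not say whether the libraries of a group came from separate cultures, and the p-values then reflect only how far these samples spread.

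Genes that place, read or remove H3K9me3, anchor it at the nuclear lamina or, as DNMT1, methylate DNA were counted first. They were 25 besides ZNF274, all tested. With siZNF274 in ASPC1, 2 were higher (8%, against 21.5% of all tested genes) and 8 lower (32%, against 24.2%). In CFPAC1, 0 were higher (against 11.6% of all) and 7 lower (28%, against 13.2%). With AZA, 4 were higher (16%, against 17.2%) and 2 lower (8%, against 18.6%) in ASPC1, and 2 higher (8%, against 12.2%) and 10 lower (40%, against 13.5%) in CFPAC1. With OE in Panc3.27, 3 were higher (12%, against 19.8%): SETDB1, SETDB2 and KDM4A. Another 13 were lower (52%, against 17.1%), among them TRIM28, DNMT1 and SUV39H1. Their median log2 fold changes were -0.11, -0.05, 0.03, -0.08 and -0.15 in these 5 comparisons.

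In the ASPC1 libraries labelled siZNF274, the protocadherin genes PCDHB13 and PCDHB14 and the phospholipase C gene PLCB1 were lower and TAF7 was higher than with siCTRL. Of 627 genes inside, 23 were tested, and 2 were higher, where 21.5% of all tested genes were called higher, and 6 lower, near the 24.2% called lower over all. The third protocadherin gene, PCDHB15, had a log2 fold change of 0.35 and did not pass (edgeR adjusted p = 0.312). The median log2 fold change was 0.05 over the tested genes inside and 0.00 over all tested genes. PCDHB13 had 8.35, 8.98 and 7.74 CPM with siZNF274, against 13.4, 12.7 and 11.4 with siCTRL, a log2 fold change of -0.58 ± 0.10 (SE, edgeR adjusted p = 0.000143). PLCB1 had 1.07, 1.15 and 1.19 CPM, against 1.85, 1.83 and 1.93 with siCTRL (log2 -0.72 ± 0.16, edgeR adjusted p = 0.00142). In both genes the groups did not overlap.

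AUTS2 had 7.87, 7.42 and 7.43 CPM with siZNF274, against 9.50, 9.87 and 8.84 with siCTRL (log2 -0.31 ± 0.09, edgeR adjusted p = 0.00897). HEPH (log2 -0.89), PCDHB14 (log2 -0.48) and ZSCAN32 (log2 -0.18) were the other 3 lower genes. PCDHB14 was the single called gene whose groups overlapped. TAF7 had 114, 117 and 112 CPM with siZNF274, against 86.6, 90.5 and 98.7 with siCTRL (log2 0.31 ± 0.05, edgeR adjusted p = 0.00019). The lncRNA TMCC1-DT had 10.4, 9.75 and 10.7 CPM, against 8.46, 4.79 and 6.16 with siCTRL (log2 0.67 ± 0.16). HEPH lost its call without siZNF274 replicate 3 (edgeR adjusted p = 0.0707), and among the 6 fits that each left out 1 library PCDHB14 lost it in 4 (edgeR adjusted p up to 0.121) and ZSCAN32 in 2 (up to 0.0997). Upper-quartile scaling gave 6 higher and 5 lower genes in this comparison, and without siCTRL replicate 1 it gave 4 higher and 5 lower.

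In CFPAC1 the siZNF274 comparison tested 52 genes inside. Of these, 5 were higher, where 11.6% of all tested genes were called higher, and 7 lower, where 13.2% were called lower, and the medians were 0.04 inside and -0.01 over all. AUTS2 had 86.0, 94.3 and 92.8 CPM with siZNF274, against 116, 125 and 118 with siCTRL (log2 -0.39 ± 0.06, edgeR adjusted p = 0.000127), and PCDHB13 had 18.4, 17.0 and 19.7 CPM, against 27.0, 24.0 and 23.7 (log2 -0.44 ± 0.08). Both were lower in each line, with no overlap between groups. The developmental regulator TSHZ3 had 9.72, 9.38 and 9.76 CPM with siZNF274, against 12.9, 13.0 and 12.3 with siCTRL (log2 -0.40 ± 0.10).

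The other lower genes were the lncRNAs SILC1 (log2 -1.02), AC144450.1 (log2 -0.95) and AC144450.2 (log2 -0.81), and GSDMC, a pore-forming gasdermin (log2 -0.26). The phosphatase gene DUSP22 had 44.2, 41.8 and 40.2 CPM with siZNF274, against 30.1, 31.4 and 31.1 with siCTRL, the groups not overlapping (log2 0.44 ± 0.06, edgeR adjusted p = 3.51e-05). PCDHB15 (log2 0.79), PLCB4 (log2 0.42), TAF7 (log2 0.24) and ZFP90 (log2 0.19) were the other higher genes. MUC16 had 82.7, 116 and 109 CPM with siZNF274, against 131, 143 and 303 with siCTRL, and did not pass (edgeR adjusted p = 0.0508). With 1 library left out, ZFP90 lost its call in 5 of 6 fits (edgeR adjusted p up to 0.158), SILC1 in 4 (up to 0.148), PCDHB15 in 4 (up to 0.0724), GSDMC in 3 (up to 0.133) and AC144450.1 in 2 (up to 0.078). Without siZNF274 replicate 1 or without siCTRL replicate 3, 4 genes were lower, and 3 were higher without siZNF274 replicate 3 or siCTRL replicate 2.

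With azacitidine, more of the tested domain genes were lower than higher, in both lines. In ASPC1, 23 genes were tested, 2 were higher, where 17.2% of all tested genes were called higher, and 6 lower, where 18.6% were called lower. The median was -0.10 inside and 0.00 over all tested genes. HEPH had 0.43, 0.18 and 0.65 CPM with AZA, against 1.92, 2.45 and 1.44 with DMSO, 4.58-fold lower (log2 -2.20 ± 0.32, edgeR adjusted p = 6.08e-05). AUTS2 had 5.38, 5.33 and 4.80 CPM, against 9.10, 9.35 and 7.99 (log2 -0.77 ± 0.09, edgeR adjusted p = 7.96e-06). PCDHB13 had 8.07, 7.00 and 8.59 CPM, against 13.7, 12.8 and 11.9 (log2 -0.70 ± 0.10). None of these groups overlapped.

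GSDMC (log2 -1.29), PLD5P1 (log2 -1.21) and POU5F1B (log2 -0.68) were the other lower genes with AZA in ASPC1. With 1 library left out, GSDMC lost its call in 4 of 6 fits (edgeR adjusted p up to 0.151) and PLD5P1 in 5 (up to 0.0811), while GSDMC also lost it with DESeq2 (adjusted p = 0.0802). The lncRNA CASC8 had 5.12, 4.79 and 4.10 CPM with AZA, against 2.71, 2.90 and 3.14 with DMSO (log2 0.68 ± 0.13), and TMCC1-DT had 9.93, 8.28 and 10.3 CPM, against 6.14, 4.98 and 6.69 (log2 0.68 ± 0.16). Both rose with no overlap. CASC8 and POU5F1B overlap in the count table, so reads of one may count for the other.

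In CFPAC1 azacitidine left 2 of 52 tested genes higher, where 12.2% of all tested genes were called higher, and 13 lower, where 13.5% were called lower. The median was -0.19 inside and 0.01 over all tested genes. PCDHB13 had 16.3, 15.1 and 16.6 CPM with AZA, against 24.0, 26.2 and 22.3 with DMSO (log2 -0.60 ± 0.08, edgeR adjusted p = 6.07e-05). PCDHB14 had 5.72, 5.96 and 6.69 CPM, against 8.01, 11.2 and 8.22 (log2 -0.58 ± 0.13). GSDMC had 19.0, 21.5 and 19.9 CPM, against 35.7, 32.8 and 34.6 (log2 -0.77 ± 0.08, edgeR adjusted p = 4.93e-06). In all 3 the groups were apart.

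BASP1, a membrane protein of neurons, had 0.94, 0.60 and 0.87 CPM with AZA in CFPAC1, against 1.62, 1.80 and 1.96 with DMSO, and was 2.22-fold lower (log2 -1.15). RBFOX1 was 2.17-fold lower (log2 -1.12). Smaller falls were seen in CTB-70G10.1, AC144450.2, STX8, PLCB4, ATP10A, AUTS2, ZFP90 and TIAM1, with log2 fold changes between -1.09 and -0.17. A lncRNA at chr12:130138693-130140768 (ENSG00000276122.1) had 1.12, 0.96 and 1.07 CPM with AZA, against 0.21, 0.08 and 0.27 with DMSO, 5.62-fold higher (log2 2.49 ± 0.36, edgeR adjusted p = 9.71e-05). MIR646HG, a lncRNA that reaches into the domain at chr20:60364211-61252048, had 0.82, 1.02 and 0.82 CPM, against 0.45, 0.41 and 0.50 (log2 0.96 ± 0.25). AUTS2 had a log2 fold change of -0.21 with AZA in CFPAC1 (edgeR adjusted p = 0.0138), and lost its call with upper-quartile scaling (edgeR adjusted p = 0.0509), without AZA replicate 2 (0.0736) and without DMSO replicate 2 (0.0822). ATP10A, ZFP90 and TIAM1 lost theirs with upper-quartile scaling too. With 1 library left out, the call was lost in 5 of 6 fits by ZFP90 (edgeR adjusted p up to 0.182), in 4 by TIAM1 (up to 0.0917), STX8 (up to 0.11) and CTB-70G10.1 (up to 0.16), in 3 by ATP10A (up to 0.103) and in 2 by AC144450.2 (up to 0.0579). PLCB4 and RBFOX1 lost it without DMSO replicate 2 (edgeR adjusted p = 0.0642 and 0.0717) and MIR646HG without AZA replicate 2 (0.0568). Upper-quartile scaling gave 3 higher and 9 lower genes, 7 were lower without AZA replicate 1, 5 without DMSO replicate 2, and without AZA replicate 2 a single gene was higher.

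Most silent domain genes had few or no reads with azacitidine too. The number of genes inside with at least 1 count was 63, 63 and 58 with AZA, against 54, 59 and 55 with DMSO in ASPC1, and 98, 102 and 100, against 96, 100 and 94 in CFPAC1, so the groups overlapped in both lines. Over all genes it was 21577, 21633 and 21395 with AZA, against 21162, 21014 and 20940 with DMSO in ASPC1, and 24121, 24020 and 24004, against 23368, 23534 and 23165 in CFPAC1, with AZA above DMSO in every library. Without the filter on low counts, 3 genes gained a call in ASPC1 and 3 in CFPAC1. In ASPC1, 11.0% of all genes tested without the filter were called higher and 11.6% lower, and in CFPAC1 8.19% were called higher and 9.09% lower. TIAM1 had 15, 14 and 9 counts with AZA in ASPC1, against 4, 0 and 4 with DMSO (4.60-fold, log2 2.20 ± 0.69, edgeR adjusted p = 0.00797). MIR646HG had 6, 2 and 6 counts with AZA, against 0 in the 3 DMSO libraries, at least 4.70-fold higher when 3 counts over the group are taken as the floor of the count of 0. LINC02441 was lower, with 0, 1 and 4 counts with AZA, against 8, 14 and 17. In CFPAC1 the lncRNAs AC079466.1 (8, 11 and 9 counts with AZA, against 1, 2 and 0), RP11-297L6.3 (3, 9 and 4, against 1, 0 and 0) and LINC02253 (2, 9 and 2, against 0) were called higher. Even with AZA, TIAM1 in ASPC1 remained under 0.5 CPM, against 73.2 to 77.5 CPM in the CFPAC1 DMSO libraries.

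The effect of siZNF274 differed between ASPC1 and CFPAC1 for 1 of the 55 genes inside tested in an edgeR interaction fit over 24 libraries, PLCB1 (log2 -0.72 in ASPC1 and 0.43 in CFPAC1, edgeR adjusted p of the difference = 0.00171). Over all genes of that fit, 7.37% were called higher and 9.28% lower in ASPC1 relative to CFPAC1. The effect of AZA differed for 6, with TIAM1, MIR646HG, CASC8 and ZC4H2 higher and AUTS2 and ATF7IP2 lower in ASPC1 relative to CFPAC1, where 8.65% and 8.66% of all genes were called. The AUTS2 fall was larger in ASPC1 by log2 -0.57 ± 0.10 (edgeR adjusted p = 9.18e-05).

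Overexpression of ZNF274 in Panc3.27 was accompanied by a higher MUC16 and by reads from H3Y and some TAF11L genes of chromosome 5. The H3Y and TAF11L genes lie in neighbouring domains mapped in ASPC1 and had few or no reads with vector. Of 627 genes inside, 40 were tested, among them H3Y1, which passed the filter on low counts through its OE libraries alone. Of the 40, 5 were higher, where 19.8% of all tested genes were called higher, and 1 lower, where 17.1% were called lower. The medians were 0.01 inside and 0.01 over all. MUC16 had 664, 829 and 634 CPM with OE, against 402, 310 and 305 with vector, 2.09-fold higher with no overlap (log2 1.06 ± 0.10, edgeR adjusted p = 3.73e-06). DUSP22 had 14.1, 14.8 and 15.4 CPM with OE, against 11.0, 12.5 and 12.6 (log2 0.29), CASC8 rose by log2 0.45 and ZFP90 by log2 0.26. CASC8 lost its call without OE replicate 1 (edgeR adjusted p = 0.055) and without vector replicate 1 (0.0628). AUTS2 did not pass (log2 0.04 ± 0.05, edgeR adjusted p = 0.554). BASP1, which reaches into the H3Y2 domain, had 22.3, 20.7 and 21.2 CPM with OE, against 24.8, 22.9 and 23.9 with vector. It did not pass (edgeR adjusted p = 0.0575), though RLE and upper-quartile scaling called it lower.

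H3Y1 lies in the domain chr5:17580610-18236614, and its CG-poor promoter is printed above. It had 15, 13 and 32 counts with OE, against 0 in the 3 vector libraries, at least 22.2-fold higher against a floor of 3 counts over the group (edgeR adjusted p = 0.000148). Its place in the test, and with it this p-value, depends on the group where it was high. H3Y2, in the neighbouring domain chr5:17259562-17530532, had 4, 8 and 3 counts with OE, against 0 with vector, at least 5.54-fold higher. TAF11L11 had 9, 16 and 11 counts, against 0, 1 and 2, and TAF11L12 had 7, 4 and 7 counts, against 0, 1 and 2. For these 4 genes every OE library lay above every vector library. H3Y2, TAF11L11 and TAF11L12 did not pass the filter on low counts and were called without it (edgeR adjusted p = 0.00304, 5.78e-05 and 0.0363), where 13.3% of all genes tested were called higher and 11.3% lower. Elsewhere POU5F1B (10, 6 and 14 counts with OE, against 2, 3 and 5) and LINC00273 (8, 0 and 1, against 0) were also called higher without the filter, and GLP2R (0 with OE, against 1, 0 and 12) was called lower.

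TAF11L13 had 2, 0 and 4 counts with OE, TAF11L14 had 1, 1 and 2, and TRIM48, in a domain of chromosome 11, had 4, 1 and 2, against 0 with vector in each, and none of the 3 passed without the filter (edgeR adjusted p = 0.0955, 0.203 and 0.0647). The other 9 TAF11L genes and all 20 USP17L genes had 0 counts in the 6 libraries, which allows up to 3 counts per group. Over the 24 ASPC1 and CFPAC1 libraries the H3Y, TAF11L and TRIM48 genes had 4 counts in all. Summed over genes inside, Panc3.27 libraries held 1058, 1217 and 1027 CPM with OE, against 779, 697 and 693 with vector, and 333.2, 327.4 and 328.5 CPM, against 314.2, 317.0 and 315.0, without TAF7 and MUC16. The number of genes inside with a count was 92, 84 and 93 with OE, against 84, 92 and 87 with vector, and overlapped.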

How the data were processed

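RNA-seq of 30 libraries and CUT&RUN of 18 samples were described by the labels, and 1 H3K9me3 broad peak list was used. Gene values are raw whole-number counts as the authors deposited them. Per the submitters' processing notes, FastQC and STAR 2.7.10b were used with hg38, and the sources used here do not give the counting program and its strand setting. For CUT&RUN they name Bowtie2, Trim Galore and DRAGEN, then MACS2, bedtools, SAMtools and HOMER, then featureCounts of Subread, and edgeR, with GRCh38 and hg38. The sources used here do not say whether peaks were called on each sample or on a pool. The deposited score is the same in all peaks, per the file headers and values, and was not used.

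The domains, genes and lists were chosen with earlier results of these data known. Peaks and genes were intersected by position, promoter windows were taken from RefSeq by symbol, and 625 of the 627 gene identifiers inside matched a table of symbols. Each line was fitted by itself in R 4.3.3 with edgeR 4.0.16 (filterByExpr, TMM scaling, quasi-likelihood test, Benjamini-Hochberg adjustment at 0.05 over all tested genes), on 12, 12 and 6 libraries. The difference between ASPC1 and CFPAC1 was tested as an interaction over 24 libraries. DESeq2 1.42.0, other scalings, no filter on low counts, a replicate block, a fit on the 2 groups compared and leaving out each library were alternatives. The code was tested on simulated data. Named genes are all genes inside that passed the test, up to 10 per direction, the 10 highest in ASPC1 controls and the coding genes of the 10 widest domains, and the genes of H3Y, TAF11L, USP17L and KRTAP, those that differ between lines, those gained without the filter and the 3 lower genes past 10 with AZA in CFPAC1 were added after their values were seen. Values of 1 gene inside are not reported here, though it stays in the counts. Floors cover counting error only.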

Additional observations from a re-analysis of the deposited data

Results flagged for a closer look

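For 7 genes inside the domains the effect of a treatment differed between ASPC1 and CFPAC1, by an edgeR interaction test over 24 libraries with adjustment over 19094 genes, of which 55 were inside. Each difference is the log2 fold change in ASPC1 minus that in CFPAC1.

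For siZNF274 the flagged gene was PLCB1, which was lower in ASPC1 (log2 -0.72) and did not pass in CFPAC1 (log2 0.43), a difference of -1.17 ± 0.26 (SE, edgeR adjusted p = 0.00171). For AZA, AUTS2 was lower in both lines and more so in ASPC1, by -0.57 ± 0.10 (edgeR adjusted p = 9.18e-05), although its call in CFPAC1 was lost with upper-quartile scaling (edgeR adjusted p = 0.0509). CASC8 was higher in ASPC1 (log2 0.68), and its value in CFPAC1 was -0.12 without passing, a difference of 0.79 ± 0.18 (edgeR adjusted p = 0.00229). TIAM1, at 38 counts with AZA, against 8 with DMSO over the ASPC1 libraries, differed by 2.36 ± 0.52 (edgeR adjusted p = 0.00152). MIR646HG, at 14 counts, against 0 in the same libraries, differed by 4.37 ± 1.19 (edgeR adjusted p = 0.0127), a size that depends on the prior count of the fit. ZC4H2 differed by 0.65 ± 0.20 (edgeR adjusted p = 0.0222) and ATF7IP2 by -0.55 ± 0.19 (edgeR adjusted p = 0.0464), although neither passed in either line alone.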

How the results depend on the processing

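Over the 5 comparisons, 48 values of named genes had 570 alternative values, of which 488 kept direction and call, 82 lost the call and 0 reversed, and 27 of the 48 never lost it. In ASPC1 siZNF274 the genes inside called higher, 2 as reported, were 6 with upper-quartile scaling, 4 without the filter and 4 with the replicate block. Without the filter, AZA gave 4 higher genes in ASPC1 and 5 in CFPAC1, and OE gave 11 higher and 3 lower. OE gave 2 lower genes with RLE and with upper-quartile scaling. The domains numbered 2239 at a width of at least 20000 bp and 652 at 50000 bp. The share of genes inside that were low in ASPC1, 97.1%, was 95.4% under 0.1 CPM, 89.7% for coding genes and 94.5% for any overlap. The cause of these shifts was not tested.

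Leaving out 1 library at a time, genes inside called higher and lower ranged from 2 to 4 and from 4 to 6 for siZNF274 in ASPC1, from 3 to 5 and from 4 to 9 in CFPAC1, from 2 to 3 and from 4 to 6 for AZA in ASPC1, from 1 to 2 and from 5 to 11 in CFPAC1, and from 5 to 8 and from 1 to 4 for OE. For OE, 8 genes were higher without OE replicate 2 or vector replicate 3, and 4 were lower without vector replicate 2. Same-numbered libraries correlated in their deviations between -0.167 and 0.282, which does not pair them, and the block moved no other count of calls inside by over 1.5 times. In the siZNF274 comparison of ASPC1 every library correlated best with its own number, a hint from the data alone. The fit on the 2 groups compared is the reported fit for Panc3.27, which has no other group. At these depths a gene with 0 counts in a library may have up to 3, and changes below that cannot be seen.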

Other observations

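After the H3Y and TAF11L values were seen, 14 genes outside the domains that are known from the cleavage-stage embryo were looked up in Panc3.27. Of these, 13 could be tested without the filter on low counts, and 9 were called higher and 0 lower with OE (edgeR), where 13.3% and 11.3% of all genes were called. The genes were picked by hand, so no test of the list was made. ZSCAN4 had 61, 42 and 45 counts with OE, against 10, 7 and 4 with vector (log2 2.95 ± 0.36, edgeR adjusted p = 2.42e-05). TRIM43 had 57, 43 and 33 counts, against 0, 3 and 2 (log2 4.79 ± 0.52, edgeR adjusted p = 7.75e-06), and TRIM49 had 10, 16 and 18, against 2 in each vector library (log2 2.95 ± 0.51, edgeR adjusted p = 0.00047). ZSCAN4, TRIM43 and TRIM49 passed the filter on low counts through their OE libraries. TRIM43B had 11, 14 and 26 counts, against 0, at least 18.8-fold higher against a floor of 3 counts over the group. KDM4E had 8, 6 and 9 counts, against 1, 0 and 0, LEUTX had 4, 8 and 7, against 0, 1 and 1, and PRAMEF12 had 7, 12 and 16, against 1, 0 and 2. CCNA1 had 1022, 1169 and 1011 counts with OE, against 634, 658 and 693 (log2 0.84 ± 0.06), and PRAMEF1 had 4, 3 and 3, against 0. DUXA had 2, 1 and 3 counts, against 0, and was not called (edgeR adjusted p = 0.0955). In DUXA and the 9 called genes the groups did not overlap. The share of all genes without overlap was not taken, so this has no baseline.

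The other 4 of the 14 genes were not called. KHDC1L had 64, 83 and 81 counts with OE, against 94, 99 and 67 with vector (edgeR adjusted p = 0.885), RFPL4A had 4, 4 and 2, against 5, 5 and 8, and DUX4, the factor known to switch on many of these genes, had 0 counts in all 6 libraries. How reads that match several copies were counted is not given, so the 0 counts of DUX4 are uncertain, and its part was not tested. MBD3L2 had 0, 0 and 1 counts with OE. In ASPC1, TRIM43, ZSCAN4 and DUXA had 0 counts over 12 libraries, and in CFPAC1 ZSCAN4 had 70 counts over 12 libraries.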
